A study of Mus musculus with 11 samples.

Results

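The capillary endothelial cells of the mouse brain make up most of the wall of the cerebral vascular bed, and the single-cell data held 15997 of them among 132437 retained cells (12.079%). A cell was retained with more than 500 genes, more than 1000 UMIs (unique molecular identifiers, the counted transcripts) and under 25% mitochondrial UMIs. It was taken as a capillary endothelial cell if it had a UMI in at least 4 of the 6 genes Cldn5, Flt1, Pecam1, Cdh5, Ly6c1 and Slco1a4. It also had to show fewer than 2 of the markers Kcnj8, Abcc9, Myh11, P2ry12, Tmem119, Mog, Aqp4 and Kcnj13 of other brain cells, fewer than 2 of the arterial genes Gkn3, Sema3g, Vegfc and Bmx, no UMI of the venous gene Ackr1, and fewer than 3 of Plvap, Esm1, Igfbp3, Cd300lg, Col13a1 and Gpihbp1, which mark fenestrated vessels. The conditions on endothelial genes and on other brain cells alone left 20730 endothelial cells, of which 2395 were arterial, 1923 venous and 129 fenestrated by the same genes. The members were thus chosen by the measured counts of these 25 genes, which are described and never tested.

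The study asked how loss of Lrg1, a secreted leucine-rich glycoprotein, changes the brain after middle cerebral artery occlusion and reperfusion (MCAO/R), a filament model of ischemic stroke. Each library came from the brain of 1 mouse: 3 sham-operated wild-type mice (sham + WT), 2 wild-type mice after MCAO/R (MCAO/R + WT), 3 sham-operated knockout mice (sham + Lrg1-/-, replicates 1, 2 and 5) and 3 knockout mice after MCAO/R (MCAO/R + Lrg1-/-, replicates 1, 2 and 5). The knockout was carried by every cell from conception and was bred onto C57BL/6N, whereas the wild-type mice were C57BL/6 mice of another source, so that genotype, substrain and source cannot be told apart. The ages given for the 2 genotypes were not the same, the labels give no age or sex per mouse, and the labels do not say which of the study's several times of reperfusion applies to these libraries. The study's discussion places its data at an hour, without naming the assay.

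Brain capillary endothelium forms the blood-brain barrier: its cells are joined by tight junctions, carry out little vesicular transport, and move glucose, amino acids and iron through dedicated carriers. Wnt and beta-catenin signalling from the surrounding brain keeps this program on. After ischemia the same cells meet plasma cytokines, stress hormones, oxygen radicals and leukocytes, and respond with acute-phase and vascular remodelling genes.

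The members per library were 2035, 1505 and 1993 in sham + WT, 2276 and 2312 in MCAO/R + WT, 769, 587 and 281 in sham + Lrg1-/-, and 301, 2647 and 1291 in MCAO/R + Lrg1-/-. Their UMIs, summed per mouse, ranged from 2773515 to 25587778, so that a rare transcript was read with the least precision in the knockout libraries with few members. A library shared at most 5 member barcodes with any other. Exactly 4 of the 6 endothelial genes were seen in 3430 members (21.442%), the weakest admitted, while 5777 cells that met every other condition had 3 and stayed out. Of the members, 7719 (48.253%) carried 1 marker of another cell type.

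The members bore the endothelial part of their label by genes the rule did not use. The vascular receptor genes Tek, Tie1 and Emcn, the surface protein gene Cd34 and the transcription factor gene Erg were 3 to 7.4 times as high in the members as in the other retained cells of the same group. Other retained cells, here and below, are those outside the capillary, arterial, venous and fenestrated classes. Of the rule's own genes, Cldn5, the main claudin of the barrier, stood at 4096, 4309.6 and 4439 CPM (UMIs scaled to a common library total and by TMM, as all CPM below unless stated) in sham + WT and at 2227 and 2107 in MCAO/R + WT. In the knockout it stood at 4219, 4631 and 4657 after sham surgery and at 3235, 2465 and 2281 after MCAO/R. Plvap, the diaphragm protein of fenestrated vessels, was near 0 throughout, at 0.753 to 2.76 CPM.

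RNA of other cells differed between the genotypes inside the members. The 5 red blood cell genes took 2.9131 to 3.8709% of the members' UMIs in sham + Lrg1-/- and 2.9047 to 5.6026% in MCAO/R + Lrg1-/-, against 0.0888 to 0.1546% and 0.0656 to 0.1009% in the corresponding wild-type groups. The 10 choroid plexus markers in the matrix, of which 9 were tested, took 2.272 to 2.6904% and 1.0989 to 2.4276% in the knockout against 0.0986 to 0.2566% and 0.0444 to 0.1096%. Microglial markers took up to 0.9958% in MCAO/R + Lrg1-/- and up to 0.4699% in MCAO/R + WT, and oligodendrocyte markers were highest in MCAO/R + WT, at 0.6326 and 1.2393%. The genotypes did not overlap in the red blood cell and choroid plexus shares, whereas the sham and MCAO/R ranges overlapped within each genotype. Cells that failed the rule for 2 or more markers of other cells made up 57.694 to 78.245% of the sum of themselves and the 4 endothelial classes in sham + Lrg1-/-, against 34.899 to 39.731% in sham + WT. The part of such RNA in a genotype difference was not tested gene by gene. Counts are therefore also given for a stricter set of cells, with no marker of another type and at most 1% red blood cell UMIs. Each named gene whose level was below that of the other retained cells is marked as such, except in the closing sections. The stricter set held 988, 817 and 1122 members in sham + WT and 1327 and 1310 in MCAO/R + WT. In the knockout it held 240, 153 and 88 after sham surgery and 115, 972 and 185 after MCAO/R. The part of the smaller number of cells in a call lost there was not tested. In addition, Xist, transcribed from the inactive X chromosome of females, had 1600 and 10343 UMIs in MCAO/R + Lrg1-/- replicates 1 and 2 and 0 to 2 in every other library, so that sex differed within that group. Counts with male libraries only, given below, leave a single MCAO/R + Lrg1-/- library, which is then assumed to vary like the other groups.

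Capillary endothelial cells made up 14.74, 15.27 and 21.09% of the retained cells in sham + WT and 22.88 and 18.55% in MCAO/R + WT. They made up 8.122, 10.35 and 8.649% in sham + Lrg1-/- and 4.675, 14.78 and 3.777% in MCAO/R + Lrg1-/-. The 3 sham knockout libraries lay below the 3 sham wild-type libraries, whereas the MCAO/R + Lrg1-/- libraries spread from the lowest share of all to that of the sham wild type. The group means were 17.0 ± 3.52 (SD, n = 3), 20.7 ± 3.06 (n = 2), 9.04 ± 1.16 (n = 3) and 7.74 ± 6.11 (n = 3) in that order. Sham + Lrg1-/- minus sham + WT was -7.99 percentage points (exact two-sided permutation test, p = 0.1, the smallest p that 3 against 3 or 3 against 2 libraries allow). The other 3 differences were 3.68 for MCAO/R in the wild type (exact p = 0.3), -1.30 for MCAO/R in the knockout (exact p = 0.9) and -12.97 between the genotypes after MCAO/R (exact p = 0.2).

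A part of this gap moved when cells were thinned before the rule was applied, which also changes how many cells meet each of its conditions. The members of sham + Lrg1-/- went from 769, 587 and 281 to 1116, 1028 and 575, and which condition this came from was not tested. With every cell thinned to 2000 UMIs, and shallower cells left out, the shares were 18.39, 19.37 and 26.06% in sham + WT and 14.29, 22.53 and 20.3% in sham + Lrg1-/-, so that these groups overlapped. The difference was then -2.23 percentage points (exact permutation p = 0.6). For MCAO/R it was 0.26 in the wild type (exact permutation p = 0.9) and -8.22 in the knockout (exact permutation p = 0.2). Between the genotypes after MCAO/R it was -10.71 (exact permutation p = 0.2). Within the endothelial cells, the capillary class held 82.19 to 85.15% in sham + WT, 79.8 and 85.95% in MCAO/R + WT, 76.57 to 78.79% in sham + Lrg1-/- and 62.96 to 81.97% in MCAO/R + Lrg1-/-. Again the sham groups did not overlap (difference -6.13 percentage points, exact permutation p = 0.1). With thinned cells this difference was -3.12 percentage points (exact permutation p = 0.1). A share of dissociated cells is not a count of vessels, and loss during dissociation cannot be told apart from loss in the tissue.

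**Figure D1:**
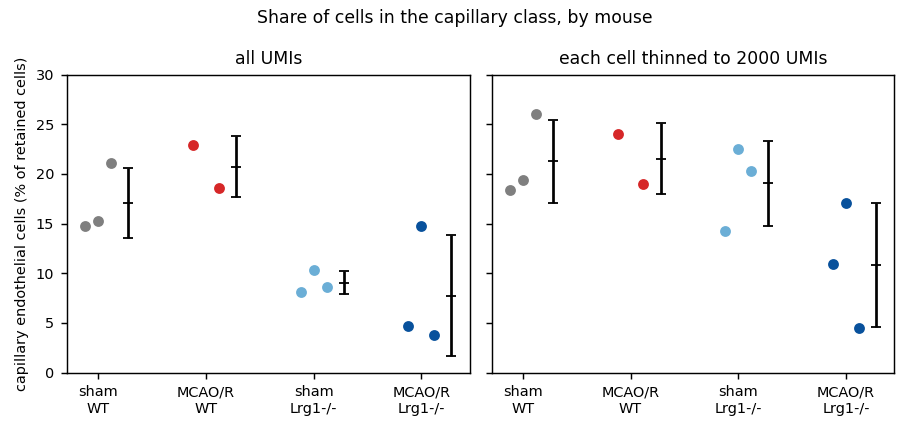
Share of capillary endothelial cells among retained cells (percent, vertical axis) in each of the 11 libraries by group, with the group mean and SD; the left panel uses all UMIs and the right panel cells thinned to 2000 UMIs. The sham + Lrg1-/- libraries lie at 8.122 to 10.35% on the left and at 14.29 to 22.53% on the right, where they overlap the sham + WT libraries.

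Lrg1, the targeted gene (chromosome 17, 56119678 to 56122001, minus strand, GRCm38), was read in every wild-type library and in no knockout library. The members held 18, 49 and 23 Lrg1 UMIs in sham + WT and 2133 and 1828 in MCAO/R + WT, and 0 in each of the 6 knockout libraries. Without TMM scaling this was a mean of 2.26 CPM and 86.4 CPM in the wild-type groups. Against a floor of 3 counts over each knockout group, Lrg1 was at least 9.89-fold lower in the knockout after sham surgery and at least 918.51-fold lower after MCAO/R. In the wild type Lrg1 rose after MCAO/R from 1.43, 3.86 and 1.32 CPM to 78.9 and 81.0 CPM, a log2 difference of 5.20 ± 0.41 (SE; adjusted p = 0.00043). This and every adjusted p below is from edgeR's quasi-likelihood test on UMIs summed per mouse, with Benjamini-Hochberg adjustment over the 16546 genes tested. A gene was called, and is said to have risen or fallen, where this p was under 0.05 and the fold change, as a natural logarithm, exceeded 0.25 in either direction. The labels do not say more of the replicates than 1 library per mouse, and a p measures the spread between these mice.

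MCAO/R changed the capillary endothelium widely in both genotypes. Of 16546 genes tested, 2844 (17.2%) were called in the wild type, 1291 higher (7.8%) and 1553 lower (9.39%). In the knockout 3121 (18.9%) were called, 1636 higher (9.89%) and 1485 lower (8.97%). The wild-type and knockout comparisons share no library. They had 582 higher genes in common, 45.081% of the wild-type list and 35.575% of the knockout list, and 798 lower genes, 51.384% and 53.737%. The counts rested on few mice: without sham + WT replicate 3 or MCAO/R + WT replicate 1 the wild-type count was 1526 or 1780, and without sham + Lrg1-/- replicate 1 or 2 or MCAO/R + Lrg1-/- replicate 2 the knockout count was 2071, 1616 or 1694. In the stricter set of cells the counts were 1712 and 2009.

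Of 30 blood-brain barrier transporter genes, 18 fell and 1 rose after MCAO/R in the wild type (median log2 difference -0.92, against -0.003 over all genes), beside 9.39% and 7.8% of all genes. In the knockout 21 fell and 1 rose (median -0.86, against 0.0157), beside 8.97% and 9.89%. Without sham + Lrg1-/- replicate 2, 13 fell in the knockout. The 1 that rose in both was Slc2a1, which encodes the glucose transporter GLUT1. Its level was 1336, 1366 and 1408 CPM in sham + WT and 2872 and 3400.4 CPM in MCAO/R + WT, and 1055, 1083 and 1275 CPM in sham + Lrg1-/- and 1807, 1913 and 1554 CPM in MCAO/R + Lrg1-/-. Both MCAO/R groups lay above their sham groups (log2 difference 1.19 ± 0.13, adjusted p = 0.00024, and 0.63, adjusted p = 0.0059). The 2 responses were not called as different from each other (interaction -0.57 ± 0.18, adjusted p = 0.18). The call in the knockout was lost with male libraries only.

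Among the carriers that fell, Slc6a6, the taurine transporter, went from 1411, 1383 and 1554 CPM to 335 and 441 CPM in the wild type and from 1345, 1464 and 1558 CPM to 712, 441 and 406 CPM in the knockout (log2 differences -1.90 ± 0.23 and -1.49 ± 0.20). Tfrc, the transferrin receptor that takes up iron, went from 333, 447 and 509.8 CPM to 107 and 159 CPM, and from 285, 324 and 326 CPM to 128, 93.4 and 95.1 CPM. The iron exporter gene Slc40a1, the cationic amino acid carrier gene Slc7a1 and the monocarboxylate carrier family member Slc16a4 fell in both genotypes too, by log2 differences of -1.78, -1.37 and -2.09 in the wild type and -1.57, -0.98 and -1.40 in the knockout. No library of an MCAO/R group reached the lowest of its sham group for any of these 5. The calls of Slc6a6 and Tfrc were kept in both genotypes under every alternative tried.

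Slc38a5, a glutamine carrier of the venous side of the capillary bed, fell in both genotypes. It stood at 143, 153 and 180.0 CPM in sham + WT and 15.9 and 23.5 CPM in MCAO/R + WT, and at 102, 116 and 153 CPM in sham + Lrg1-/- and 91.8, 50.7 and 44.5 CPM in MCAO/R + Lrg1-/-. The log2 differences were -3.01 ± 0.32 (adjusted p = 0.00021) and -1.01 ± 0.27 (adjusted p = 0.024). The difference between them, 2.0038 ± 0.40, missed the threshold (adjusted p = 0.054). After MCAO/R the knockout lay above the wild type by 1.64 ± 0.31 (adjusted p = 0.0038), a call that was lost when only those 5 libraries were fitted. At 2000 UMIs per cell, 18.3015 to 24.4407% of members had a Slc38a5 UMI in sham + WT and 3.2274 to 5.7005% in MCAO/R + WT. In the knockout the ranges overlapped, at 15.0215 to 17.7686% in sham + Lrg1-/- and 6.4458 to 15.2985% in MCAO/R + Lrg1-/-.

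**Figure D2:**
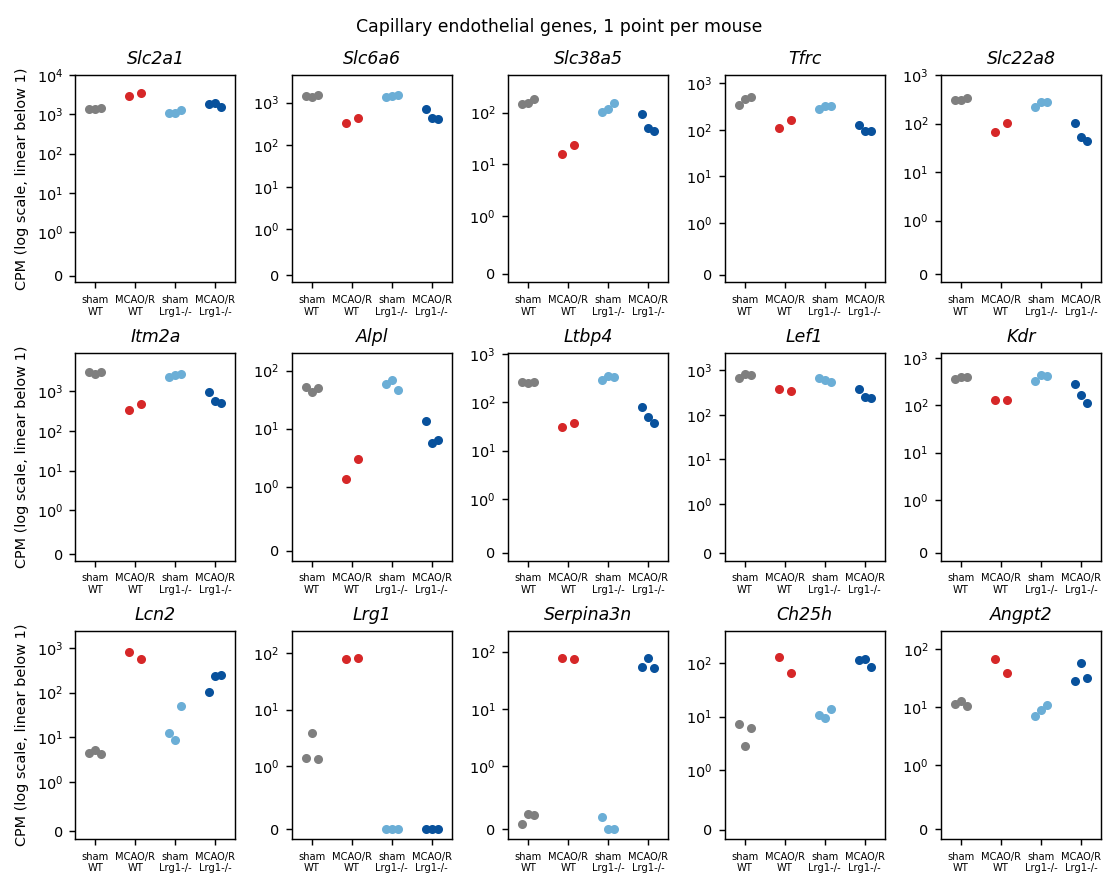
Level of 15 genes (CPM on a logarithmic axis that is linear below 1) in each library by group; the panels were chosen with the values known. Slc6a6, Slc38a5, Tfrc, Itm2a, Alpl, Ltbp4, Lef1 and Kdr are lower in the MCAO/R groups, Slc2a1, Lcn2, Serpina3n, Ch25h and Angpt2 are higher, and Lrg1 is at 0 in every knockout library.

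Of 24 genes of Wnt and beta-catenin signalling in the barrier, 14 fell and 0 rose in the wild type (median log2 difference -0.82), beside 9.39% and 7.8% of all genes. In the knockout 19 fell and 0 rose (median -0.92), beside 8.97% and 9.89%. Fzd6, a Wnt receptor, fell from 164, 173 and 179 CPM to 49.9 and 55.0 CPM in the wild type, and from 132, 141 and 119 CPM to 65.3, 48.5 and 41.3 CPM in the knockout (log2 differences -1.71 ± 0.17 and -1.35 ± 0.15). The forkhead factor gene Foxq1 fell by log2 differences of -1.38 and -1.21, and Tnfrsf19, a target of the pathway, by -1.87 in the wild type. Tnfrsf19 fell in the knockout too (136, 146 and 117 CPM against 64.0, 39.0 and 40.6 CPM). Ctnnb1, which encodes beta-catenin itself, fell by -1.33 and -0.88. In the stricter set of cells 2 rose and 10 fell in the wild type.

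Some of the genes named for the size of their fall are known from brain capillaries. Itm2a, a membrane protein gene of the barrier endothelium, went from 3166, 2797 and 3144 CPM to 330.5 and 473 CPM in the wild type (log2 difference -2.92 ± 0.28, adjusted p = 0.00013). In the knockout it went from 2254, 2607 and 2816 CPM to 951, 573 and 499 CPM (-1.93 ± 0.23). Alpl, the tissue-nonspecific alkaline phosphatase by which brain capillaries are stained, fell from 51.4, 41.9 and 50.8 CPM to 1.33 and 2.97 CPM, and from 58.2, 67.6 and 46.4 CPM to 13.2, 5.69 and 6.41 CPM. The difference between these responses was not called (interaction 1.59, adjusted p = 0.17). Pltp, a phospholipid transfer protein gene, fell by -3.56 and -2.39, the chemokine gene Cxcl12 by -2.54 and -2.26, and Spock2, a secreted proteoglycan gene, by -2.68 and -2.19. Car4, a carbonic anhydrase on the capillary surface, fell by -1.66 and -2.26. The lipid and steroid enzyme genes Sgpp2 and Akr1c14 fell by -3.18 and -3.31 in the wild type and by -2.75 and -2.96 in the knockout.

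Genes of both ends of the capillary bed were among those lowered. Of 9 genes of the arterial side, 6 fell and 1 rose in the wild type and 7 fell and 1 rose in the knockout, and of 9 genes of the venous side 5 fell and 1 rose and 7 fell and 1 rose. Of all genes 9.39% fell and 7.8% rose in the wild type, and 8.97% fell and 9.89% rose in the knockout. The 1 riser of the venous side was Vwf, von Willebrand factor, at 90.7, 113 and 105 CPM in sham + WT and 226 and 238 CPM in MCAO/R + WT (log2 difference 1.17 ± 0.13, adjusted p = 0.00022), and 1.0006 ± 0.12 in the knockout. The riser of the arterial side was Mgp, which codes for a secreted matrix protein (1.42 and 2.12); it lay below the level of other retained cells in 3 of the 4 groups, and its wild-type call was lost in the stricter set and without any of sham + WT replicate 1, sham + WT replicate 2 and MCAO/R + WT replicate 1. Of 10 general endothelial genes outside the rule, 7 fell in the wild type and 6 in the knockout, with medians of -0.82 and -0.75. Of these, Emcn fell from 763, 770.5 and 832 CPM to 240.1 and 204 CPM in the wild type (log2 difference -1.83 ± 0.17).

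Within the sham + WT members, cells with and without a Slc38a5 UMI differed in some of the 12 genes compared. Members with a Slc38a5 UMI held 1.462 to 1.761 times as much Car4, 1.291 to 1.439 times as much Itm2a and 1.204 to 1.361 times as much Tfrc as members without, and 0.622 to 0.811 times as much Tgfb2, 0.69 to 0.77 times as much Rgcc and 0.646 to 0.712 times as much Cxcl12, each range being over the 3 libraries at 2000 UMIs per cell. Mfsd2a, at 0.817 to 1.165 times, and Slco1c1, at 0.95 to 1.053 times, lay on both sides of 1, and in MCAO/R + WT the ratio of Rgcc was 1.102 to 1.121. These ratios describe the cells that were chosen, and no test was made on them.

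Of 22 tight and adherens junction genes tested, 6 fell and 1 rose in the wild type (median -0.36), where 9.39% of all genes fell and 7.8% rose, and 5 fell and 5 rose in the knockout (median -0.26), where 8.97% fell and 9.89% rose. The number that fell in the wild type ran from 2, with the replicate block, to 7 over the alternatives. Ocln, the tight junction protein occludin, stood at 238, 237 and 251 CPM in sham + WT, 149 and 165 CPM in MCAO/R + WT, 192, 195 and 192 CPM in sham + Lrg1-/- and 152, 124 and 111 CPM in MCAO/R + Lrg1-/-, and fell by -0.63 ± 0.12 and -0.59 ± 0.11. Jam2, another junction molecule, fell by -0.90 and -0.58. Both genes lost these calls when cells were thinned to 2000 UMIs. Tjp1, the scaffold ZO-1, was not called in the wild type (-0.27 ± 0.17) and fell in the knockout by -0.77 ± 0.15.

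The study chose 4 adhesion genes on these samples, so that their values are no independent evidence. It reported their expression as higher in barrier cells (astrocytes, smooth muscle cells, pericytes and endothelial cells) of knockout mice after MCAO/R. By immunofluorescence it also reported more of the 4 proteins in endothelial cells, which RNA does not measure. Cldn11, a claudin of myelin, stood at 147, 199.9 and 117 CPM in sham + WT and 239 and 444 CPM in MCAO/R + WT, and at 69.9, 91.8 and 56.6 CPM in sham + Lrg1-/- and 189.7, 142 and 301 CPM in MCAO/R + Lrg1-/-, below the level of other retained cells in every group, beside an oligodendrocyte share that was highest in MCAO/R + WT. Its call in the wild type (1.14 ± 0.34, adjusted p = 0.043) was lost in the stricter set, with thinned cells, with at least 5 endothelial genes, with the replicate block, with only the compared groups fitted, and without any of sham + WT replicate 1, sham + WT replicate 3, MCAO/R + WT replicate 2 and sham + Lrg1-/- replicate 1. In the knockout it rose by 1.52 ± 0.33 (adjusted p = 0.00996), and after MCAO/R the genotypes overlapped and their difference was not called (-0.70 ± 0.35, adjusted p = 0.16). Anxa2, a calcium-dependent membrane protein gene, rose in the knockout from 113, 123 and 165 CPM to 358, 418 and 315 CPM (1.45 ± 0.23, adjusted p = 0.0026), and was at 112, 116, 132, 204 and 103 CPM in the 5 wild-type libraries. After MCAO/R it was higher in the knockout by 1.25 ± 0.26 (adjusted p = 0.0067), a call lost with male libraries only and with only those 5 libraries fitted. Itgb5 and Pcdh9 were not called in any comparison.

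Of 10 genes of caveolae, the vesicles that barrier endothelium keeps few of, 4 fell and 0 rose in the wild type, beside 9.39% and 7.8% of all genes. In the knockout 3 fell and 2 rose, beside 8.97% and 9.89%. With the replicate block 1 fell in the wild type. Cav1, the coat protein caveolin-1, stood at 176, 190.3 and 194 CPM in sham + WT and at 34.3 and 40.1 CPM in MCAO/R + WT, and at 230.1, 235 and 213 CPM in sham + Lrg1-/- and 131, 102 and 85.5 CPM in MCAO/R + Lrg1-/-. It fell in both, by -2.33 ± 0.17 and -1.10 ± 0.14. The difference between the responses was 1.23 ± 0.21 (adjusted p = 0.033), a call lost without any of 9 libraries, all but MCAO/R + Lrg1-/- replicates 1 and 5.

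Of 40 acute-phase and NF-kB genes, 17 rose, 1 fell and 22 were not called in the wild type (median log2 difference 0.94). There 7.8% of all genes rose and 9.39% fell. In the knockout 10 rose, 1 fell and 29 were not called (median 0.47), where 9.89% of all genes rose and 8.97% fell. The risers were 7 in the wild type with the replicate block. Of the 17 and 10 risers, 7 in the wild type and 4 in the knockout were at least as high in the members as in other retained cells. This was judged in the compared group where the members' level was higher. Of all genes tested, 47.347% and 52.581% met this condition. Serpina3n, a secreted protease inhibitor, went from 0.0794, 0.236 and 0.230 CPM to 76.8 and 74.7 CPM in the wild type and from 0.201, 0 and 0 CPM to 54.2, 76.2 and 52.2 CPM in the knockout. Ch25h, cholesterol 25-hydroxylase, went from 7.23, 2.83 and 6.04 CPM to 132 and 63.8 CPM and from 10.6, 9.42 and 13.7 CPM to 115, 119 and 85.3 CPM (log2 differences 4.18 ± 0.37 and 3.27 ± 0.36). Its level was 3 and 3.3 times that of other retained cells after MCAO/R, whereas Serpina3n lay at 0.68 and 0.8 times. The members Cebpd and Tnfrsf1a, a transcription factor of the acute-phase response and a tumour necrosis factor receptor, rose in the wild type by 1.55 ± 0.23 and 1.11 ± 0.18. The 1 that fell in both was Irf1, an interferon regulatory factor (-0.77 and -1.13). Its wild-type call was lost in the stricter set and without MCAO/R + WT replicate 2.

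Lcn2, an iron-binding protein of the acute phase, rose steeply in both genotypes. It stood at 4.53, 5.27 and 4.31 CPM in sham + WT and at 809 and 569 CPM in MCAO/R + WT, and at 12.4, 8.81 and 49.8 CPM in sham + Lrg1-/- and 103, 241 and 256 CPM in MCAO/R + Lrg1-/-. The log2 difference was 7.20 ± 0.65 in the wild type (adjusted p = 8.9e-05) and 3.1954 ± 0.55 in the knockout (adjusted p = 0.0038). The interaction, -4.00 ± 0.79, missed the threshold (adjusted p = 0.054). After MCAO/R the knockout was lower by -1.78 ± 0.52 (adjusted p = 0.03), which was lost in 7 of the alternatives, among them DESeq2 and the loss of MCAO/R + Lrg1-/- replicate 1 or 2 or of either MCAO/R + WT replicate. Neutrophils carry Lcn2 as well, and neutrophil markers took 0.0043 and 0.0058% of the members' UMIs in MCAO/R + WT, 0.0024, 0.1385 and 0.2183% in MCAO/R + Lrg1-/- and 0.0825% in sham + Lrg1-/- replicate 5, the sham knockout library with the highest Lcn2; their part in the Lcn2 values was not tested.

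Lcn2 UMIs were seen in a part of the members, and a thinned cell without one cannot be read as lacking the transcript. At 2000 UMIs per cell, 914 of 2076 and 728 of 2070 members had an Lcn2 UMI in the 2 MCAO/R + WT libraries (44.027 and 35.1691%), against 8.9404 to 12.5% of microglia (cells with both P2ry12 and Tmem119 and none of the 6 endothelial genes, thinned alike), and 0.4608 to 0.7278% of members in sham + WT. In MCAO/R + Lrg1-/- the share was 10.4478 to 30.4387% of members and 4.4118 to 17.5% of microglia, and these ranges overlapped. In the 2 MCAO/R + WT libraries the 10% of the members richest in Lcn2 held 70.326 and 69.231% of its UMIs. In the same libraries Lrg1 was seen in 13.129 and 20.055% of the members with Lcn2 and in 4.389 and 3.055% of those without, and Vcam1, a leukocyte adhesion molecule, in 10.613 and 14.56% against 5.25 and 3.651%. Fkbp5 showed no such gap, at 34.245 and 39.148% against 34.854 and 37.183%.

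Of 12 leukocyte adhesion genes tested, 3 fell and 0 rose in the wild type, beside 9.39% and 7.8% of all genes, and 3 fell and 1 rose in the knockout, beside 8.97% and 9.89%. With thinned cells 1 fell in the wild type and 0 in the knockout. Vcam1 stood at 80.4, 77.4 and 71.3 CPM in sham + WT and 69.3 and 64.2 CPM in MCAO/R + WT and was called in no comparison. Icam1 was at 382, 302 and 291 CPM and 312 and 278 CPM in the wild type, and at 274, 249 and 208 CPM and 139.8, 188 and 188 CPM in the knockout, where it fell (-0.50 ± 0.15, adjusted p = 0.043); in the stricter set this difference was 0.0082, and the call was lost without any of 7 libraries. Icam2, which is constitutive, fell in the wild type by -0.65 ± 0.13, a call lost in the stricter set and with thinned cells.

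Of 21 glucocorticoid-responsive genes, more rose than fell after MCAO/R in both genotypes, and 14 were lower in the knockout than in the wild type after it. In the wild type 14 rose and 2 fell (median 1.39), beside 7.8% and 9.39% of all genes. In the knockout 10 rose, 3 fell and 8 were not called (median 0.50), beside 9.89% and 8.97% of all genes that rose and fell. Fkbp5, a chaperone of the glucocorticoid receptor, went from 5.72, 5.04 and 4.95 CPM to 224 and 283 CPM in the wild type (log2 difference 5.60 ± 0.24, adjusted p = 1.2e-06). In the knockout it went from 8.43, 8.4004 and 6.46 CPM to 50.8, 74.4 and 96.7 CPM (3.23 ± 0.24, adjusted p = 0.00017). The response was smaller in the knockout (interaction -2.37 ± 0.33, adjusted p = 0.014), a call lost in the stricter set and without sham + Lrg1-/- replicate 1, sham + Lrg1-/- replicate 2 or MCAO/R + WT replicate 2. Microglia carried Fkbp5 too: 57.6923 to 62.5828% of them had a UMI in MCAO/R + WT at 2000 UMIs, against 34.5857 to 37.8744% of the members.

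Zbtb16, a zinc finger factor gene, rose from 17.9, 8.82 and 8.46 CPM to 345 and 464 CPM in the wild type and from 24.5, 11.3 and 11.4 CPM to 88.1, 95.4 and 155 CPM in the knockout (log2 differences 5.12 ± 0.41 and 2.81 ± 0.39). The kinase gene Map3k6 rose by 3.01 and 2.12, and Tsc22d3, which encodes the glucocorticoid-induced leucine zipper, by 1.31 and 1.14. Nr3c1, the receptor itself, fell in both, by -1.08 ± 0.13 and -0.68 ± 0.12. Between the genotypes after MCAO/R, 14 of the 21 were lower in the knockout and 0 higher, and in the sham groups 2 were lower and 0 higher, against background shares of 10.9% and 6.13% of all genes. In the stricter set 11 of the 21 were lower after MCAO/R, and with male libraries only 5.

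Net1, a guanine nucleotide exchange factor gene, was on this list, and its responses differed between the genotypes (interaction -2.20 ± 0.30, adjusted p = 0.013). It stood at 71.3, 70.3 and 79.3 CPM in sham + WT and 230.3 and 258 CPM in MCAO/R + WT. In the knockout it was at 103, 118 and 91.6 CPM and 107, 56.2 and 65.5 CPM, with overlapping groups. The interaction call was lost without sham + WT replicate 1 or MCAO/R + WT replicate 2. Sgk1, a serum- and glucocorticoid-regulated kinase, went from 461, 247 and 276 CPM to 843 and 875 CPM in the wild type (1.39 ± 0.29, adjusted p = 0.0086). In the knockout it was at 272, 366 and 472 CPM and 361, 519.8 and 597 CPM, with overlapping groups (0.42 ± 0.27, adjusted p = 0.30).

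The letters AGAACA, any 3 bases and TGTTCT, the full palindrome that the glucocorticoid receptor binds as a dimer, were searched on both strands of the promoters given by RefSeq for GRCm38.p6, from 250 bases before to 50 after each gene's start. They were in 3 of 32851 promoters (0.0091%), and 1 of these was Sgk1, the only match among the 18 glucocorticoid-responsive genes of 21 that had a promoter there. The stretch is shown because it is the one place where the letters and a measured member of the list meet, on the plus strand of chr10:21993694-21993722, with the palindrome in capitals starting 189 bases before the gene's start:
Sgk1: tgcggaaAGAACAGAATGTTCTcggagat
The search was added with the values known, and a match is a description and not a measured binding site. The letters TTCCNGGAA, to which STAT3 binds, were in 377 promoters (1.1476%) in 0 of the 84 promoters found for 70 of the 90 leading genes of the comparisons, in 1 of the 38 of acute-phase genes (Tnfrsf1b) and in 2 of the 39 of transporter genes.

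**Figure D3:**
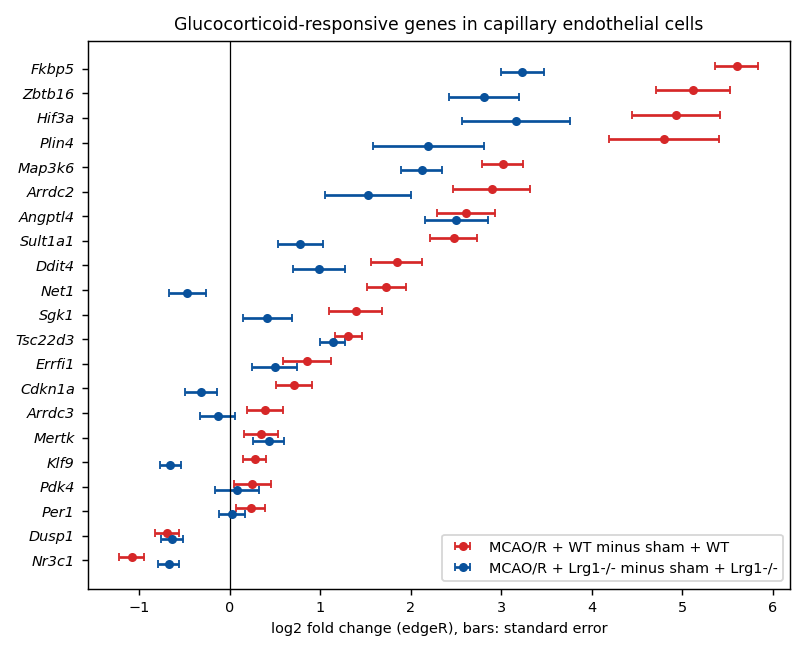
Log2 difference of MCAO/R minus sham with its standard error (horizontal axis) for the 21 glucocorticoid-responsive genes, in the wild type (red) and in the knockout (blue). Fkbp5 lies at 5.60 and 3.23 and Zbtb16 at 5.12 and 2.81, and Nr3c1 lies below 0 in both.

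Of 35 angiogenic and tip cell genes, 3 rose and 12 fell in the wild type, beside 7.8% and 9.39% of all genes, and 6 rose and 10 fell in the knockout, beside 9.89% and 8.97%. The knockout's risers were 3 without sham + Lrg1-/- replicate 2 and its fallers 5 with thinned cells. Angpt2, the angiopoietin that loosens vessels, rose from 11.4, 12.988 and 10.6 CPM to 69.8 and 39.1 CPM and from 7.03, 9.02 and 11.0 CPM to 28.9, 58.9 and 31.9 CPM (log2 differences 2.23 ± 0.31 and 2.21 ± 0.33), while Tek, the gene of its receptor, fell in both (424, 453 and 506 CPM against 156 and 170.2 CPM in the wild type). Plaur, the urokinase receptor, rose by 2.50 and 1.57, the latter call being lost without sham + Lrg1-/- replicate 2. Nrp1, a co-receptor of vascular endothelial growth factor, fell from 233, 284 and 261 CPM to 60.0 and 67.1 CPM in the wild type and from 172, 187 and 179 CPM to 147, 125 and 92.1 CPM in the knockout.

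Apln, the tip cell peptide apelin, rose in the knockout by the widest margin of this list. It stood at 3.73, 5.83 and 2.47 CPM in sham + WT, 10.4 and 6.03 CPM in MCAO/R + WT, 2.01, 0.615 and 2.28 CPM in sham + Lrg1-/- and 58.2, 48.7 and 56.5 CPM in MCAO/R + Lrg1-/-. The knockout response was 5.13 ± 0.43 (adjusted p = 0.0003) and the wild-type response 1.05 ± 0.35 (adjusted p = 0.061). Their difference was 4.08 ± 0.58 (adjusted p = 0.014), lost with thinned cells, with male libraries only, and without sham + Lrg1-/- replicate 1 or 2, sham + WT replicate 1 or MCAO/R + WT replicate 2. Of the members of MCAO/R + Lrg1-/-, 3.2229 to 4.2752% had an Apln UMI at 2000 UMIs, against 0 to 1.4706% of microglia. Venous endothelial cells of the group, at 1.9231 to 5.8824%, overlapped the members. Within the group the level did not split by the 2 libraries with Xist.

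Of 22 basement membrane genes, 4 rose and 6 fell in the wild type, beside 7.8% and 9.39% of all genes, and 8 rose and 3 fell in the knockout, beside 9.89% and 8.97%. The 8 were 3 without sham + Lrg1-/- replicate 1, and the 6 were 2 with the replicate block. Adamts9, a matrix protease, went from 47.0, 39.3 and 49.5 CPM to 652 and 146 CPM and from 18.9, 20.9 and 34.6 CPM to 307, 638 and 350.1 CPM (3.14 ± 0.51 and 4.16 ± 0.54). Timp1, an inhibitor of such proteases, rose by 4.13 and 5.28, and the collagen gene Col4a2 by 0.98 and 0.92, calls that Col4a2 lost without MCAO/R + WT replicate 1 in the wild type and without sham + Lrg1-/- replicate 1 or MCAO/R + Lrg1-/- replicate 2 in the knockout. Lama4, a laminin chain of the endothelial basement membrane, fell in the wild type from 81.3, 95.1 and 87.2 CPM to 28.004 and 25.1 CPM (-1.72 ± 0.17) and was not called in the knockout (-0.28 ± 0.15).

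Among 21 coagulation and vessel tone genes tested, 4 rose and 3 fell in the wild type, beside 7.8% and 9.39% of all genes, and 5 rose and 4 fell in the knockout, beside 9.89% and 8.97%. The wild-type fallers were 1 without MCAO/R + WT replicate 2, and the knockout risers 2 without sham + Lrg1-/- replicate 1. Thbd, thrombomodulin, an anticoagulant receptor, fell from 112, 120.0 and 107 CPM to 67.4 and 48.7 CPM in the wild type and by the same log2 difference of -0.96 in the knockout; the wild-type call was lost without MCAO/R + WT replicate 2. Serpine2, a thrombin inhibitor, rose in the wild type from 58.9, 57.0 and 58.5 CPM to 131 and 173 CPM, and stood at 55.8, 56.8 and 64.2 CPM and 51.4, 55.4 and 61.8 CPM in the knockout. The responses differed by -1.45 ± 0.17 (adjusted p = 0.0088), a call lost in 1 alternative, the replicate block.

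Of 31 TGF-beta and BMP signalling genes, 10 fell and 0 rose in the wild type, beside 9.39% and 7.8% of all genes. In the knockout 15 fell and 0 rose, beside 8.97% and 9.89%. With thinned cells 3 fell in the wild type, and up to 3 rose there and up to 2 in the knockout over the alternatives. Ltbp4, a latent TGF-beta binding protein, fell from 261, 246 and 257 CPM to 30.9 and 37.8 CPM and from 292, 353 and 341 CPM to 80.4, 48.7 and 36.3 CPM (-2.89 ± 0.27 and -2.60 ± 0.23). Tgfb2 fell by -1.92 and -1.98. Of 13 YAP/TAZ target genes, 2 rose and 2 fell in the wild type, beside 7.8% and 9.39% of all genes. In the knockout 1 rose and 2 fell, beside 9.89% and 8.97%. Ccn2, connective tissue growth factor, rose in the wild type from 53.7, 40.7 and 51.9 CPM to 299 and 308 CPM and was at 21.9, 22.5 and 53.2 CPM and 44.3, 48.7 and 38.3 CPM in the knockout; the responses differed by -2.15 ± 0.40 (adjusted p = 0.042), which was lost without any of 10 of the libraries, all but sham + Lrg1-/- replicate 5.

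Of 20 oxidative stress and metal genes, 10 rose and 3 fell in the wild type, beside 7.8% and 9.39% of all genes. In the knockout 9 rose and 1 fell, beside 9.89% and 8.97%. The risers were 4 in the wild type with the replicate block and 4 in the knockout without sham + Lrg1-/- replicate 2. At least as high in the members as in other retained cells were 6 of the 10 and 2 of the 9 risers, beside 47.347% and 52.581% of all genes. The metallothionein gene Mt1 rose from 405, 356 and 371 CPM to 2511 and 1254 CPM and from 375, 472 and 439.8 CPM to 759, 1242 and 936 CPM (2.32 ± 0.27 and 1.19 ± 0.24), and the ferritin chain gene Fth1 by 1.47 and 1.21. Of 26 endoplasmic reticulum and heat shock genes tested, 3 rose and 8 fell in the wild type, beside 7.8% and 9.39% of all genes. In the knockout 9 rose and 6 fell, beside 9.89% and 8.97%. By the same measure of level, 1 of the 3 risers and 6 of the 8 fallers in the wild type were at least as high in the members. In the knockout these were 1 of the 9 risers and all 6 fallers. In the wild type the fallers were heat shock genes, such as Hspa1b (344, 828 and 585 CPM against 34.2 and 22.9 CPM; -4.36 ± 0.63) and Hspb1 (-1.09), and the risers served protein folding in the endoplasmic reticulum, such as Manf (0.81 and 1.05), whose wild-type call was lost without sham + WT replicate 1 or 3 or MCAO/R + WT replicate 1.

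The heat shock falls went with falls of genes that dissociation of tissue induces. Of 27 immediate early genes, 2 rose and 10 fell in the wild type, beside 7.8% and 9.39% of all genes. In the knockout 1 rose and 15 fell, beside 9.89% and 8.97%. Jun, a component of the factor AP-1, stood at 8647, 6993 and 7748 CPM in sham + WT, 4645 and 4194 CPM in MCAO/R + WT, 6846, 6619 and 6154 CPM in sham + Lrg1-/- and 2809.7, 2264 and 2459.8 CPM in MCAO/R + Lrg1-/-. A response to surgery and one to dissociation cannot be told apart in these genes. Of 28 hypoxia and glycolysis genes tested, 5 rose and 5 fell in the wild type, beside 7.8% and 9.39% of all genes. In the knockout 8 rose and 3 fell, beside 9.89% and 8.97%. At least as high in the members as in other retained cells were 2 of the 5 risers and all 5 fallers in the wild type. In the knockout these were 2 of the 8 risers and all 3 fallers. The glycolysis regulator gene Pfkfb3 rose from 15.3, 13.2 and 14.8 CPM to 64.7 and 36.0 CPM in the wild type (1.80 ± 0.23), below the level of other retained cells.

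Interferon-stimulated genes fell more often than they rose: of 43, 14 fell and 1 rose in the wild type (median -0.78), beside 9.39% and 7.8% of all genes. In the knockout 12 fell and 2 rose (median -0.56), beside 8.97% and 9.89%. The lower count ran from 6, without sham + WT replicate 3, to 26 in the wild type over the alternatives, and from 2, without MCAO/R + Lrg1-/- replicate 2, to 22 in the knockout. Ly6e, which restricts viruses, fell from 744, 732 and 774 CPM to 343 and 306 CPM and from 944, 1118 and 1162 CPM to 948, 691 and 696 CPM (-1.21 ± 0.16 and -0.47 ± 0.14). Psmb9, a subunit of the immunoproteasome, fell by -1.93 and -0.87. The 1 that rose in both was Ifitm1 (2.84 and 3.24), at 0.24 to 0.58 times the level of other retained cells, with the wild-type call lost without sham + WT replicate 3 or MCAO/R + WT replicate 1.

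Of 21 cell cycle genes, 5 rose and 0 fell in the knockout (Top2a, Mcm2, Mcm3, Mcm5 and Ccnd1), beside 9.89% and 8.97% of all genes. In the stricter set 1 rose there. Of the 5, 2 were at least as high in the members as in other retained cells, beside 52.581% of all genes. The list's median log2 difference was 1.36 in the knockout and 0.03 in the wild type. Between the genotypes after MCAO/R 5 of the genes were called higher and 0 lower in the knockout, beside 14.4% and 10.9% of all genes, while the median was -0.30. The interaction called none of the 21 by edgeR, with 6 higher and 0 lower at an unadjusted p under 0.05, and 2 by DESeq2. Mcm2 and Mcm3 lost the call in the stricter set and without sham + Lrg1-/- replicate 2 or MCAO/R + Lrg1-/- replicate 2, and Mcm2 also without sham + Lrg1-/- replicate 5. Ccnd1, cyclin D1, stood at 25.7, 26.6 and 29.3 CPM in sham + Lrg1-/- and 122, 114 and 75.0 CPM in MCAO/R + Lrg1-/- (1.93 ± 0.29), and at 31.8, 36.5, 42.5, 58.8 and 25.9 CPM in the wild-type libraries. With male libraries only, 1 of the 21 rose.

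Several of the strongest rises by rank are of genes whose level was no higher in the members than in other cells. Spp1, osteopontin, which microglia and macrophages make after injury, went from 1.41, 1.23 and 1.52 CPM to 175, 4656 and 2006 CPM in the knockout and from 4.85, 1.34 and 6.90 CPM to 398 and 22.4 CPM in the wild type, at 0.41 to 0.72 times the level of other retained cells in the wild-type groups and MCAO/R + Lrg1-/-. Its wild-type call was lost without MCAO/R + WT replicate 1, sham + WT replicate 1 or sham + WT replicate 2. In MCAO/R + Lrg1-/- 25.7463 to 87.0114% of members and 33.8235 to 91.25% of microglia had a Spp1 UMI at 2000 UMIs per cell, so that the 2 ranges overlapped. Msr1, Lpl and Gpr84, with lower levels in the members than elsewhere, rose in both genotypes as well.

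**Figure D4:**
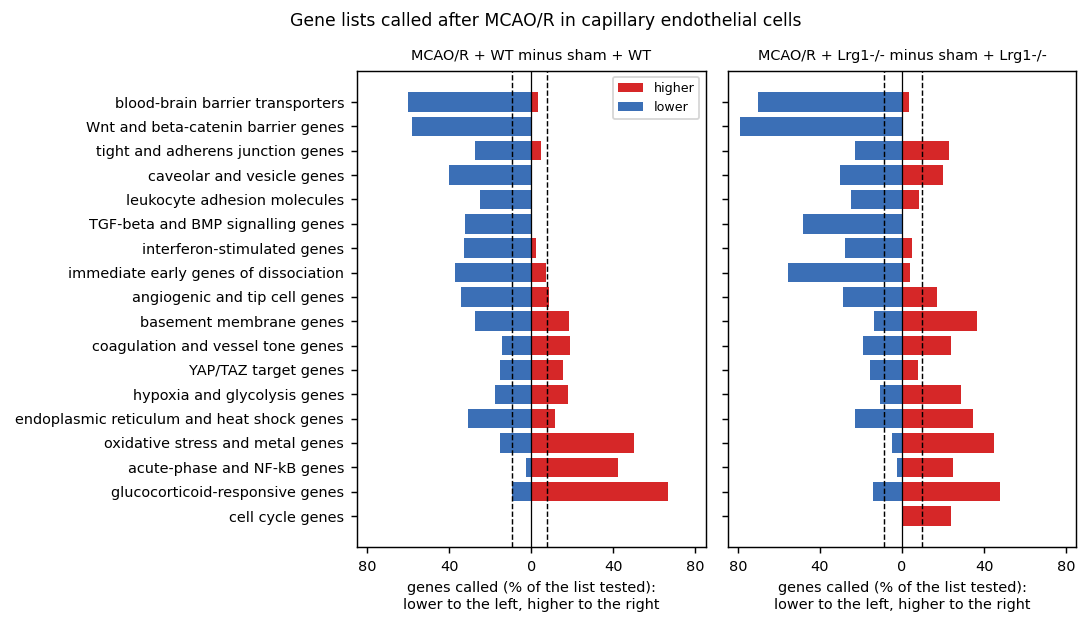
Percent of the tested genes of each list that were called higher (to the right) or lower (to the left) after MCAO/R in the wild type and in the knockout, with dashed lines at the share of all genes called in that direction. Transporter, Wnt and TGF-beta lists lie to the left for MCAO/R in both genotypes, and the acute-phase and glucocorticoid lists lie to the right.

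Between the genotypes without injury, 2114 of 16546 genes (12.8%) were called, 1100 higher (6.65%) and 1014 lower (6.13%) in sham + Lrg1-/- than in sham + WT. The largest rise by the naming rule was of Gzma, a granzyme gene of lymphocytes, at 0.230 to 0.315 CPM against 41.6, 16.8 and 14.1 CPM, a call lost in the stricter set. Among the next were genes of the choroid plexus, an epithelium that is no part of a capillary: Prr32 (0.690 to 1.11 CPM against 19.5 to 24.3 CPM), Ppp1r1b, Wfdc2, Sostdc1, Calml4 and Chchd10, each at 0.2 to 0.32 times the level of other retained cells, beside choroid plexus marker shares that did not overlap between the genotypes. All 9 choroid plexus and all 5 red blood cell markers tested were called higher. In the stricter set (88 to 240 members per sham + Lrg1-/- library, 817 to 1122 per sham + WT library) 335 genes were called. The count ran from 1048 to 2511 as single libraries were left out, and lay between 1048 and 1335 without any 1 of the 6 sham libraries.

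Most ribosomal protein genes and most nuclear genes of the respiratory chain were higher in the knockout. Of 82 ribosomal protein genes 72 were higher and 0 lower in sham + Lrg1-/- (median log2 difference 0.62), and of 88 nuclear genes of the respiratory chain 65 were higher and 0 lower (median 0.66), against a median of -0.0184 over all genes, of which 6.65% were higher. After MCAO/R the corresponding counts were 78 and 71 higher and 0 lower, with medians of 0.86 and 0.84, where 14.4% of all genes were higher. Of the 13 genes encoded by the mitochondrial genome, 2 were higher and 1 lower in sham mice and 1 was higher and 1 lower after MCAO/R. For MCAO/R itself the ribosomal list of 82 had 1 higher and 3 lower in the wild type, beside 7.8% and 9.39% of all genes. In the knockout it had 14 higher and 5 lower, beside 9.89% and 8.97%. The red blood cell and choroid plexus RNA described above was higher in the same libraries and its part in this shift was not tested. The labels name no processing run, and the source of the mice and the genotype cannot be told apart.

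Of the 30 transporter genes 4 were lower and 0 higher in sham + Lrg1-/-, of the 24 Wnt genes 3 lower and 1 higher, and of the 22 junction genes 4 lower, against a background of 6.13% of all genes lower, with medians of -0.14, -0.14 and -0.28 against -0.0184. Slc1a1, a glutamate transporter, was lower at 228, 235 and 199 CPM against 390.5, 401 and 418 CPM (-0.87 ± 0.14, adjusted p = 0.0035). It was lower after MCAO/R as well, at 171, 214 and 142 CPM against 399 and 379 CPM (-1.15 ± 0.15, adjusted p = 0.00059). Pdk4, a kinase that holds pyruvate back from oxidation, was lower in both (-1.77 and -1.94). Ifnb1, the gene of interferon beta, was at 27.8, 17.9 and 15.5 CPM in sham + WT and 0.402, 0.205 and 0 CPM in sham + Lrg1-/-, though at 0.12 times the level of other cells in sham + WT. Of 43 interferon-stimulated genes 5 were higher, beside 6.65% of all genes, and 1 lower, and the higher count ran from 0, with the replicate block, to 19 over the alternatives. Among the 5 were the antigen presentation genes B2m (1.29 ± 0.26, adjusted p = 0.011) and H2-K1 (0.92 ± 0.18). B2m was at 524, 485 and 497 CPM in sham + WT and 1083, 1220.5 and 1367 CPM in sham + Lrg1-/-. Of the 21 cell cycle genes 4 were lower and 0 higher, among them Top2a, the topoisomerase of dividing cells. It was at 9.85, 24.8 and 25.1 CPM in sham + WT and 2.41, 1.84 and 0.380 CPM in sham + Lrg1-/- (adjusted p = 0.0069), a call lost in the stricter set, with thinned cells and with at least 5 endothelial genes.

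After MCAO/R 4191 genes (25.3%) were called between the genotypes, 2388 higher (14.4%) and 1803 lower (10.9%) in MCAO/R + Lrg1-/- than in MCAO/R + WT. The sham and MCAO/R comparisons of genotype share no library. They had 775 higher genes in common (70.455% of the sham list and 32.454% of the MCAO/R list) and 545 lower genes (53.748 and 30.227%). With only the 5 MCAO/R libraries fitted 1155 were called, in the stricter set 2064, with male libraries only 1892, and without MCAO/R + WT replicate 2 2055.

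Of the barrier lists, 4 of 30 transporter genes were lower and 1 higher (median 0.03), and 5 of 24 Wnt genes were lower and 0 higher (median -0.26), against a background of 10.9% lower. The transporter that was higher was Slc38a5. Slc2a1 was lower in the knockout by -0.83 ± 0.13 (adjusted p = 0.0015) and Abcc4, a drug and nucleotide exporter, by -1.27 ± 0.16 (227, 170.3 and 185 CPM against 433 and 497 CPM; adjusted p = 0.00054). Slc2a1 lost the call when only the 5 libraries were fitted. Alpl was higher in the knockout by 1.85 ± 0.40 (adjusted p = 0.0074), lost in that fit, with thinned cells and with male libraries only.

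For the next 3 lists, 14.4% of all genes were higher and 10.9% lower in the knockout after MCAO/R. Of 43 interferon-stimulated genes 10 were higher and 1 lower, such as Psmb9 at 70.8, 46.0 and 31.9 CPM against 16.6 and 12.1 CPM (1.76 ± 0.27, adjusted p = 0.0013) and Ifi27 (1.51 ± 0.24). Of 26 endoplasmic reticulum and heat shock genes tested 13 were higher and 1 lower, such as the chaperone gene Calr at 443, 526 and 505 CPM against 216 and 132 CPM (adjusted p = 0.00053). Of 28 hypoxia and glycolysis genes tested 13 were higher and 3 lower, such as the glycolytic enzyme gene Tpi1 (1.23 ± 0.09) and Pgk1 (1.27 ± 0.17). Calr, Tpi1 and Pgk1 lay below other retained cells in level in MCAO/R + Lrg1-/-. Of the 7552 genes at least as high in the members as in those cells, 1831 were called in either direction. Among such genes, 8 of 37 interferon-stimulated genes were higher and 0 lower. In the endoplasmic reticulum and heat shock list 1 of 10 such genes was higher and 1 lower, and in the hypoxia and glycolysis list 5 of 16 were higher and 3 lower. With only the 5 libraries fitted the higher counts were 4, 4 and 7 in the order of these lists, where 774 of 17027 genes were higher. With male libraries only these 3 counts were 5 higher and 1 lower, 7 higher and 0 lower, and 7 higher and 2 lower.

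The interaction of genotype and surgery, the test of whether the response to MCAO/R differed, called 112 of 16546 genes (0.677%), 54 higher and 58 lower in the knockout response. With the replicate numbers as a block edgeR called 0 genes, with 1710 at an unadjusted p below 0.05, while DESeq2 without the block called 546, and the count ran from 21 to 253 as single libraries were left out, moving by more than 1.5 times for each but MCAO/R + Lrg1-/- replicate 5. Doc2b, a calcium sensor of vesicle release, had the largest difference: it went from 1.19, 0.945 and 0.403 CPM to 145 and 174 CPM in the wild type and from 1.81, 4.10 and 1.52 CPM to 6.77, 9.94 and 12.6 CPM in the knockout (log2 differences 7.60 ± 0.37 and 1.94 ± 0.38; interaction -5.66 with an SE of 0.60, adjusted p = 0.0058). At 2000 UMIs 26.3006 to 32.7053% of the members had a Doc2b UMI in MCAO/R + WT, 0.7463 to 2.3277% in MCAO/R + Lrg1-/-, and 0 to 0.9934% of microglia in MCAO/R + WT. Venous endothelial cells were at 20.6897 to 28.4211% in MCAO/R + WT and 0 to 2.2059% in MCAO/R + Lrg1-/-, ranges that overlapped those of the members. The interaction call was lost in the stricter set and with thinned cells.

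Wnt5a, a ligand of the Wnt family, went from 22.7, 26.6 and 28.2 CPM to 66.6 and 90.9 CPM in the wild type and from 35.3, 31.6 and 41.8 CPM to 25.2, 20.4 and 28.9 CPM in the knockout (interaction -2.16 ± 0.25, adjusted p = 0.0088). Il1r1, the receptor of interleukin 1, went from 74.7, 84.0 and 83.8 CPM to 244 and 274 CPM, and stood at 90.9, 54.5 and 38.8 CPM and 56.7, 46.4 and 50.2 CPM in the knockout (-1.97 ± 0.34, adjusted p = 0.033; lost without any of 6 libraries). Cd59a, which guards cells from complement, rose in the wild type by 0.92 ± 0.14 and fell in the knockout by -0.43 ± 0.13 (interaction -1.35 ± 0.19, adjusted p = 0.014; lost without MCAO/R + WT replicate 2). Its difference in the knockout was 0.0471, with no call, in the stricter set, and it lost that call without any of 7 libraries.

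In the other direction, Ptp4a3, a phosphatase gene, fell in the wild type from 94.3, 79.5 and 96.0 CPM to 31.7 and 27.3 CPM and stood at 78.9, 71.7 and 80.6 CPM and 76.1, 69.1 and 67.3 CPM in the knockout (interaction 1.48 ± 0.16, adjusted p = 0.0061). Klhl6, a ubiquitin ligase adaptor gene, fell in the wild type from 78.3, 87.4 and 82.4 CPM to 26.5 and 17.4 CPM and was at 41.6, 41.6 and 35.4 CPM and 37.9, 41.7 and 34.0 CPM in the knockout (1.85 ± 0.23, adjusted p = 0.011). Among the lists, 3 glucocorticoid-responsive genes of 21 were called, all lower (Fkbp5, Net1 and Klf9), and 3 angiogenic genes of 35 and 2 basement membrane genes of 22, all higher (Apln, Nrp1 and Lxn, and Lama4 and Sparc). Klf9, Nrp1, Lxn, Lama4 and Sparc each lost the call without any of 6 to 9 of the libraries, sham + WT replicates 1, 2 and 3, sham + Lrg1-/- replicates 1 and 2 and MCAO/R + WT replicate 2 among them for every one.

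The MCAO/R response was next compared between capillary cells and the other endothelial classes of the same mice, with the mouse as a term in the fit. Against arterial endothelial cells (49 to 388 per library), 457 of 14592 genes (3.13%) were called in the wild type, 128 higher and 329 lower in capillary cells. Without single libraries the count ran from 176 to 523, and it was 232, 243 and 176 without sham + WT replicates 1, 2 and 3 and 184 without MCAO/R + WT replicate 1. Among the genes described above, 4 fell more steeply in capillary cells: the difference in response of Pltp, capillary minus arterial, was -1.16 ± 0.10 (adjusted p = 4.2e-05), that of Tfrc by -1.09 ± 0.13, that of Itm2a by -1.03 ± 0.14 and that of Slc6a6 by -0.78 ± 0.12. By the naming rule Sostdc1, a choroid plexus gene, Htr2c, Slc4a10 and Kcne2 led the lower genes, and Igkc, an immunoglobulin gene, led the higher ones. Further down, Igfbp4, a binding protein of insulin-like growth factors, differed by -2.62 ± 0.46 and Cd44, the hyaluronan receptor, by 2.98 ± 0.70. The responses of Lcn2 (0.18, adjusted p = 0.88), Fkbp5 (0.24, adjusted p = 0.72) and Slc2a1 (-0.17, adjusted p = 0.62) were not called as different.

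Against venous endothelial cells the comparison had little power, since libraries with fewer than 20 venous cells were left out and 1 sham + WT library, with 21, was left, which is assumed to vary like the libraries of the other groups. It called 5 of 15699 genes (0.0318%): Pak1, a kinase, higher, and Opcml, Tnr, Lsamp and Cadm2, genes of neural adhesion and matrix, lower; without single libraries the count ran from 0 to 83. Lrg1 and Lcn2 were at higher levels in the venous class, a description with no test. Unscaled CPM of Lrg1 in the 2 MCAO/R + WT libraries was 83.4 and 89.4 in capillary, 52.1 and 58.5 in arterial and 641 and 970 in venous cells. Lcn2 was at 854 and 628, 533 and 444, and 5707 and 5169 in the same order, and in MCAO/R + Lrg1-/- at 104, 227 and 249, 74.5, 217 and 203, and 3067, 2098 and 3087. Fkbp5 differed less between the classes, with 193 and 233 in arterial and 239 and 304 in venous cells of MCAO/R + WT and 40.2 to 70.4 and 50.6 to 111 in MCAO/R + Lrg1-/-.

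**Figure D5:**
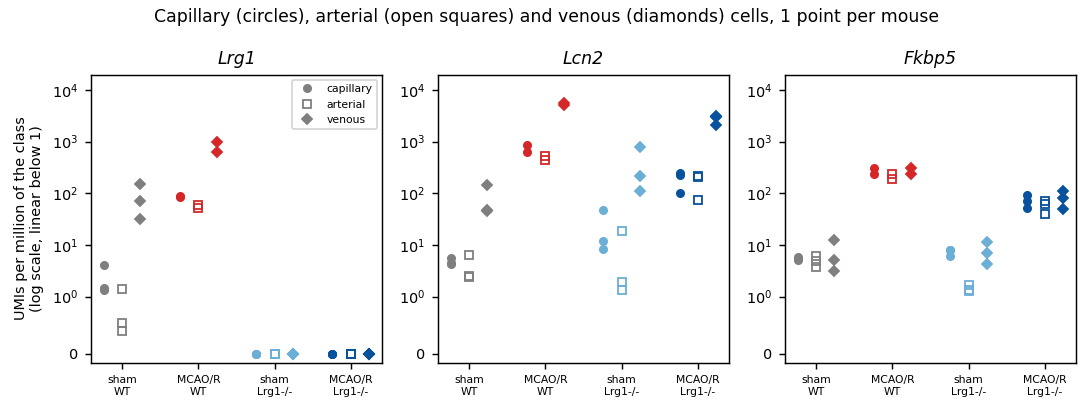
Unscaled CPM (logarithmic axis, linear below 1) of Lrg1, Lcn2 and Fkbp5 in capillary, arterial and venous endothelial cells of each library by group. In MCAO/R + WT the venous cells lie highest for Lrg1 (641 and 970) and Lcn2 (5707 and 5169), and for Fkbp5 the 3 classes lie close together.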

How the data were processed

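Brains of 11 mice were dissociated and run on the 10x Chromium 3' kit, 1 library per mouse. The authors made the deposited UMI counts per gene and cell with Cell Ranger (version 7.0.1 per the file headers) on mm10; whether filters beyond cell calling were applied is not given in the sources used here. Counts were used as deposited, from 32285 genes and 155804 barcodes, with 0 columns of unknown samples.

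Retained cells had more than 500 genes, more than 1000 UMIs and under 25% mitochondrial UMIs. Doublets were not removed in the main analysis, and an alternative left out the 6% of cells most like simulated doublets. For each mouse the members' counts were added up per gene, and the sums were fitted with edgeR 4.0.16 (R 4.3.3; TMM, filterByExpr, quasi-likelihood, all 11 libraries in 1 model); pooled spread stands in for the 2 mice of MCAO/R + WT. Endothelial classes were compared with the mouse as a term, in libraries with at least 20 cells of both. Shares were compared by exact two-sided permutation tests (SciPy 1.17.1). Scripts were tested on simulated data. Groups and replicate numbers came from the labels. Intervals of shares of cells are not given, since the libraries are the replicates; Lrg1 floors of 3 counts cover counting error only.

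The members, the gene lists and the tests were chosen with earlier results of these data known. The genes named were taken, per comparison, from the 12 with the largest change in each direction among called genes with groups that did not overlap and at least 20 CPM (8 for the interaction and the class comparisons), the 4 of lowest adjusted p in each direction of each list, Lrg1, and the 4 genes the study had chosen; Kdr, Lef1, Sgk1 and Vcam1 were named after their values were seen. Levels relative to other retained cells, those outside the 4 endothelial classes, are ratios of group means of unscaled CPM. The alternatives were DESeq2 1.42.0 (Python 3.11.15 for the rest), other size factors, no filter, other cell rules, thinning, the replicate block and single libraries left out. After the data were seen, male libraries only, genes at least as high in the members as elsewhere (judged in the compared group where the members' level was higher, so that the set depends on the change), haemoglobin left out, and the receptor's promoter motif were added. Not every gene that meets the naming rule is reported here.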

Additional observations from a re-analysis of the deposited data

Results flagged for a closer look

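For each of the 16 genes named for the interaction of genotype and surgery, the log2 response to MCAO/R in the members' summed counts differed between the genotypes. The test was edgeR's quasi-likelihood test with Benjamini-Hochberg adjustment, and this difference drew attention to each of them. Their levels relative to other retained cells are not given in this section. The part of RNA of other cells in these differences was not tested. The knockout response was higher for Apln (4.08, adjusted p = 0.0136), Ccdc153 (2.99, adjusted p = 0.0409), Cthrc1 (2.16, adjusted p = 0.0151), Kcnq1 (2.07, adjusted p = 0.0136), Rarres2 (1.94, adjusted p = 0.0376), Klhl6 (1.85, adjusted p = 0.0109), Myct1 (1.52, adjusted p = 0.0376) and Ptp4a3 (1.48, adjusted p = 0.00615). Cthrc1, a secreted collagen triple helix protein, showed the pattern in levels: 32.7, 28.6 and 31.4 CPM in sham + WT, 3.29 and 4.21 CPM in MCAO/R + WT, 26.5, 31.6 and 31.9 CPM in sham + Lrg1-/- and 23.1, 12.4 and 14.961 CPM in MCAO/R + Lrg1-/-. Kcnq1, a potassium channel gene, fell in the wild type and rose in the knockout (log2 differences -1.12 and 0.94).

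The knockout response was lower for Doc2b (-5.66, adjusted p = 0.00575), Fkbp5 (-2.37, adjusted p = 0.0136), Fmo2 (-2.22, adjusted p = 0.0491), Net1 (-2.2, adjusted p = 0.0133), Wnt5a (-2.16, adjusted p = 0.00879), Ccn2 (-2.15, adjusted p = 0.0425), Il1r1 (-1.97, adjusted p = 0.033) and Tma16 (-1.96, adjusted p = 0.0136). Tma16, a ribosome assembly gene, stood at 11.996, 12.5 and 11.3 CPM in sham + WT, 65.2 and 105 CPM in MCAO/R + WT, 10.6, 10.4 and 9.88 CPM in sham + Lrg1-/- and 15.1, 20.9 and 20.3 CPM in MCAO/R + Lrg1-/-. All 16 calls were lost with the replicate numbers as a block, and the source of the mice and the genotype cannot be told apart in the knockout response. With male libraries only, 50 genes were called for the interaction.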

How the results depend on the processing

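Counts are in the order MCAO/R in the wild type (2844), MCAO/R in the knockout (3121), genotype in sham (2114), genotype after MCAO/R (4191) and interaction (112). Whether the replicate numbers pair the mice is not known. Correlations ran from -0.3643 to 0.1703 in 13 same-number pairs (median -0.0148) and from -0.1703 to 0.3643 in 32 other pairs (median 0.0046). They cannot decide this, since values with the MCAO/R + WT libraries were mirror images, such as -0.3643 and 0.3643. With the replicate numbers as a replicate block the counts were 1063, 1800, 342, 2701 and 0. With cells thinned to 2000 UMIs they were 1478, 1656, 947, 2670 and 40, and in the stricter set of cells 1712, 2009, 335 and 2064. Genes at least as high in the members as elsewhere gave 1746, 1795, 775 and 1831. With only the groups compared the genotype counts were 3236 and 1155. With male libraries only genotype after MCAO/R gave 1892 and the interaction 50, and the interaction was 546 by DESeq2 and 204 with at least 5 endothelial genes. Without single libraries the ranges were 1526 to 3389, 1616 to 4105, 1048 to 2511, 2055 to 4204 and 21 to 253. Capillary against venous cells (5) gave 8 with other size factors, 165 with no filter, 3 with thinned cells and 0 to 83 without single libraries (0 by edgeR without sham + Lrg1-/- replicate 1 or 5, where 1316 and 1338 genes passed an unadjusted p of 0.05). Against arterial cells (457) no filter gave 999, thinning 136 and single libraries left out 176 to 523.

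The share of retained cells, MCAO/R minus sham, ran without single libraries from 1.5167 to 5.8467 in the wild type and from -4.8143 to 0.6872 in the knockout, where it turned positive without replicate 1 (0.2382) or 5 of MCAO/R + Lrg1-/-; the genotype differences ran from -9.1397 to -5.9647 and from -16.489 to -10.806. The capillary share of the 4 endothelial classes in the wild type turned from -0.885 to 1.7 with thinned cells and ran from -3.96 to 2.19, the other differences from -9.8883 to -0.3833, from -6.9117 to -5.4317 and from -15.13 to -5.625. Of 10867 alternative values for 474 gene results, 9639 kept direction and call, 1223 lost the call, and 5 turned direction, all in the stricter set: Icam1 (0.0082) and Cd59a (0.0471) for MCAO/R in the knockout and Rorb (0.4744), Lama2 (0.0765) and Pgam1 (-0.1014) for genotype in sham; the cause was not tested. Few members in some knockout libraries limit the rare genes.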
